A study of Mus musculus with 22 samples.

Results

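The genes described here are 38 genes of glutathione metabolism and antioxidant defence, in kidney cortex from C57BL/6J males. They were chosen by symbol as named members of these pathways from a deposited table of 16556 genes that holds all 38. The choice was made with earlier results of these data known. Shares of members set beside shares of all genes are therefore descriptions only. The study deleted Crat, which encodes carnitine acetyltransferase, a mitochondrial enzyme that transfers acetyl units from acetyl-CoA to carnitine. The deletion combined loxP-flanked Crat with a Cre recombinase under a Ggt promoter, which is active in proximal tubular cells, and the endogenous Ggt1 gene is one of the 38 members. Pt-CrAT stands for the deleted mice and fl/fl for the floxed mice set against them. There were 3 Pt-CrAT and 3 fl/fl libraries at 12 months with LFD in the title, a word the labels do not spell out. At 15 months on chow there were 3 Pt-CrAT and 3 fl/fl libraries, and at 24 months on chow 5 and 5. Each library carries its title as a name (titles of fl/fl libraries start with Wt), and values are listed in the order of the numbers that end the names. The assay (QuantSeq) reads 1 tag near the 3' end of each transcript, so no correction for length was made. Levels are in CPM (counts scaled by library size and the TMM factor of the library). How reads of similar genes were counted is not given, so comparisons of level between genes are approximate. Beyond the numbers that end the names, nothing says that each library came from a separate animal, and p-values then measure only the spread between the libraries.

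Glutathione is a small thiol peptide that cells use to reduce peroxides and to conjugate toxic compounds. Glutathione peroxidases, peroxiredoxins and catalase remove peroxides, superoxide dismutases turn superoxide into hydrogen peroxide, and the thioredoxin system and glutathione reductase restore the reduced state with NADPH. In the kidney the proximal tubule breaks down filtered glutathione at its brush border through gamma-glutamyltransferase, the product of Ggt1, and makes the secreted glutathione peroxidase encoded by Gpx3. Many of these genes are targets of the transcription factor NRF2, which binds the antioxidant response element and is held in check by KEAP1.

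The core of that element, TGACNNNGC, was searched on both strands of the RefSeq promoter table (GRCm38.p6), in windows from 250 bases before to 50 bases after a transcription start. It was found for 10 of the 31 members in that table (32.3%), against 3781 of all 27025 genes in it (13.99%). The 10 members were Ggt1, Gclm, Gstm5, Mgst1, Txnrd1, Srxn1, Prdx1, Sod1, G6pdx and Pgd. Gclc, Gsr, Gsta4, Gstt2, Prdx6, Sod3 and Hmox1 were not matched to the table. By window, 12 of 42 member windows held the core (28.6%), against 4071 of 32851 windows (12.4%), and 3 of the 4 Ggt1 windows did. The matches of Ggt1, Sod1, Pgd and Mgst1 are printed because these members passed a test that involves genotype, and that of Prdx1 as an abundant member that did not. Capitals mark the core, each sequence runs 5' to 3' on the strand named, and a match describes these letters only, not a bound site. The printed matches of Ggt1, Mgst1 and Pgd lie inside the genes as annotated, past the annotated 5' end. Pgd spans chr4:149149991-149166771 on the minus strand, and its match begins after the start that its window was built on. No other motif was searched.
Ggt1, chr10:75564153-75564181, plus strand: acttgttgaccttgggcatcTGACACAGC
Ggt1, chr10:75568606-75568654, minus strand: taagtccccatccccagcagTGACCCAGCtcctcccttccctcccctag
Ggt1, chr10:75571457-75571505, plus strand: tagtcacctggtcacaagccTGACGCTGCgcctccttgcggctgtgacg
Sod1, chr16:90220686-90220734, minus strand: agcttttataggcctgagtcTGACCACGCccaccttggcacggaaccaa
Pgd, chr4:149166051-149166099, minus strand: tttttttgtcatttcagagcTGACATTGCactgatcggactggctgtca
Mgst1, chr6:138140451-138140499, minus strand: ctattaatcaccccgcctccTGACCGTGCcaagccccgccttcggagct
Prdx1, chr4:116685446-116685494, minus strand: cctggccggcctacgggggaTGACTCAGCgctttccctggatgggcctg

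Total counts per library ran from 12175804 to 17447367, with Pt-CrAT library CrAT12MLFD345 at 53157575, and all 38 members passed the filter on low counts, which left 15064 genes. Crat itself averaged 36.2 ± 4.41 CPM in Pt-CrAT and 74.7 ± 24.4 CPM in fl/fl at 24 months (SD, n = 5 each), and 62.5 ± 19.4 CPM in Pt-CrAT and 78.9 ± 22.5 CPM in fl/fl at 12 months (SD, n = 3 each). At 15 months Crat went against the labels, with 69.1 ± 5.27 CPM in the libraries labelled Pt-CrAT and 45.3 ± 13.3 CPM in those labelled fl/fl (SD, n = 3 each). Any direction drawn from the 15-month libraries therefore rests on labels that Crat went against. The Crat difference did not pass in any of the 3 settings (edgeR, smallest adjusted p 0.177). At 24 months, Pt-CrAT libraries CrAT24Mchow123 and CrAT24Mchow136 stood apart in Kap, an androgen-responsive transcript of the proximal tubule, with 4565 and 2853 CPM, against at least 18928 CPM in the other 20 libraries. Proximal tubule markers were abundant in all 6 groups, and in bulk tissue fewer cells of a type and less RNA per cell cannot be told apart.

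Peroxide-removing and superoxide-removing enzymes were the most abundant members. Gpx3 averaged 16025 CPM over the 22 libraries (range 7971 to 32187), followed by the cytosolic superoxide dismutase Sod1 at 4126 CPM (2539.8 to 7759.9), the cytosolic glutathione peroxidase Gpx1 at 3833 CPM (2234 to 4737) and Ggt1 at 3154 CPM (1324 to 5984). The ranges of Sod1, Gpx1 and Ggt1 overlap, so their order is not beyond the spread. The peroxiredoxin Prdx1 averaged 1710.0 CPM and catalase (Cat) 1224 CPM. Among the glutathione transferases, Gstt2 was highest at 603 CPM and, Gstp1 aside, the microsomal Mgst3 lowest at 5.68 CPM. Gstp1 had 0 to 15 counts per library, and its near-identical copies Gstp2 and Gstp3 could take its reads, so its values are uncertain and its fold changes are not printed. Summed over the members, the median level at 12 months was 56962 CPM in Pt-CrAT and 41290.1 CPM in fl/fl. At 15 months it was 40874 CPM in libraries labelled Pt-CrAT and 34820.2 CPM in those labelled fl/fl, and at 24 months 25656 CPM in Pt-CrAT and 31486 CPM in fl/fl. Gpx3 alone had medians of 29337 CPM in Pt-CrAT and 19315 CPM in fl/fl at 12 months, so it makes up much of these sums.

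**Figure D1:**
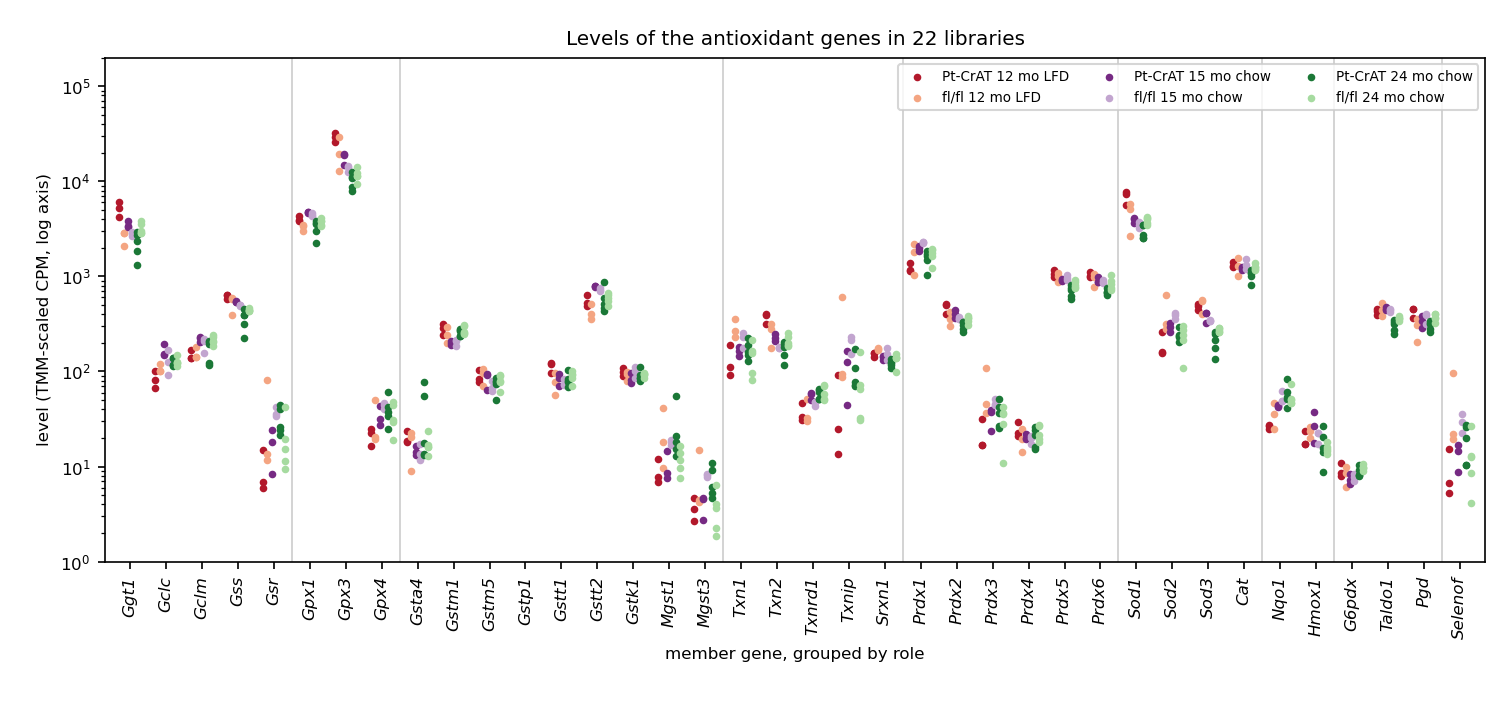
Level of 37 members (x axis, grouped by role; Gstp1 has no points) in the 22 libraries, as TMM-scaled CPM on a log axis, with 1 point per library coloured by group. Gpx3 lies highest, at 7971 to 32187 CPM, and Mgst3 lowest, at 1.85 to 14.8 CPM.

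At 12 months the comparison of Pt-CrAT with fl/fl asks how floxed mice with the Cre differed from floxed mice on LFD, where the Crat difference itself did not pass. Ggt1, the theta-class transferase Gstt1, the pentose phosphate dehydrogenase Pgd and Sod1 rose in Pt-CrAT. The mitochondrial superoxide dismutase Sod2, the mitochondrial peroxiredoxin Prdx3, the cytosolic thioredoxin Txn1, the thioredoxin inhibitor Txnip and the endoplasmic reticulum selenoprotein Selenof fell. These 9 of 38 members (23.7%) passed an adjusted p of 0.05 (edgeR quasi-likelihood test, Benjamini-Hochberg over the 15064 genes tested), against 16.4% of all genes. The 4 that rose compare with 8.41% of all genes called higher, and the 5 that fell with 7.95% called lower. The median log2 fold change was -0.05 for the members and 0.00 for all genes. Called or not, 4 members lay above without overlap (Ggt1, Gpx1, Gstt1 and Pgd), against 16.3% of all genes. Below without overlap lay 5 (Txn1, Srxn1, Prdx3, Sod2 and Selenof), against 13.8% of all genes.

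Ggt1 (ENSMUSG00000006345, chr10:75561604-75586200 in GRCm38, plus strand) had 5984, 5208 and 4249 CPM in Pt-CrAT libraries CrAT12MLFD328, CrAT12MLFD337 and CrAT12MLFD345, against 2070.4, 2869 and 2877 CPM in fl/fl libraries Wt12MLFD326, Wt12MLFD327 and Wt12MLFD368. Each Pt-CrAT library stood above all 3 fl/fl libraries, and the log2 fold change was 0.98 (SE 0.22, edgeR adjusted p = 0.00978). Gstt1 had 123.9, 119.9 and 97.1 CPM in Pt-CrAT and 56.5, 76.7 and 95.2 CPM in fl/fl. The groups came close without overlapping, with a log2 fold change of 0.58 (SE 0.18, edgeR adjusted p = 0.0339). Pgd, which makes NADPH, had 453, 450.2 and 364 CPM in Pt-CrAT and 206, 354 and 307 CPM in fl/fl. Its groups were also apart, with fl/fl library Wt12MLFD326 the lowest (log2 fold change 0.55, SE 0.17, edgeR adjusted p = 0.0344). Sod1 had 7759.9, 7294 and 5624 CPM in Pt-CrAT and 2679, 5114 and 5766 CPM in fl/fl. Here the groups overlapped, since Pt-CrAT library CrAT12MLFD345 lay below fl/fl library Wt12MLFD368, and the log2 fold change of 0.61 (SE 0.21) passed narrowly (edgeR adjusted p = 0.0498).

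Among the members that fell, Sod2 had 161, 158 and 263 CPM in Pt-CrAT, against 631, 313 and 277 CPM in fl/fl (log2 fold change -1.07, SE 0.30, edgeR adjusted p = 0.0227). Prdx3, which reduces peroxides in the same organelle, had 16.8, 16.7 and 31.3 CPM in Pt-CrAT and 109.8, 36.1 and 44.9 CPM in fl/fl (log2 fold change -1.54, SE 0.43, edgeR adjusted p = 0.0253). Txn1 had 92.5, 111 and 190.0 CPM in Pt-CrAT and 354, 229.8 and 266 CPM in fl/fl (log2 fold change -1.11, SE 0.30, edgeR adjusted p = 0.0217). In all 3 genes the groups did not overlap and fl/fl library Wt12MLFD326 was the highest. Without that library the log2 fold changes were -0.60 for Sod2, -0.88 for Prdx3 and -0.91 for Txn1 (edgeR adjusted p = 0.218, 0.232 and 0.133). Txnip, which binds and inhibits thioredoxin, had 13.5, 24.6 and 92.6 CPM in Pt-CrAT and 607, 87.5 and 94.2 CPM in fl/fl. The groups overlapped and fl/fl library Wt12MLFD326 stood far above the rest (log2 fold change -2.57, SE 0.82, edgeR adjusted p = 0.0413). Selenof had 5.30, 6.65 and 15.1 CPM in Pt-CrAT and 95.8, 19.6 and 21.9 CPM in fl/fl, apart and with the same library highest (log2 fold change -2.28, SE 0.64, edgeR adjusted p = 0.0257). Without library Wt12MLFD326 these were -1.03 for Txnip and -1.14 for Selenof (edgeR adjusted p = 0.473 and 0.291).

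The other 29 members did not pass, with log2 fold changes from -1.90 for glutathione reductase (Gsr) to 0.52 for Gpx3. Gsr had 6.85, 5.92 and 14.9 CPM in Pt-CrAT and 81.6, 11.7 and 13.6 CPM in fl/fl (edgeR adjusted p = 0.0558), and again library Wt12MLFD326 was far above the others (log2 fold change -0.40 without it). By role, calls fell on 1 of 5 genes of glutathione synthesis, turnover and reduction, 0 of 3 glutathione peroxidases, 1 of 9 transferases, 2 of 5 thioredoxin system genes and 1 of 6 peroxiredoxins. They also fell on 2 of 4 superoxide dismutases and catalase, 0 of 2 quinone and haem enzymes, 1 of 3 pentose phosphate enzymes (G6pdx, Taldo1 and Pgd) and Selenof. Of the 4 members that rose, 3 hold the antioxidant response core printed above, and of the 5 that fell, 0 do, beside 10 of 31 members in the promoter table and 13.99% of all its genes. These counts are small and were not tested, and Ggt1 had 4 windows in which to match. The matches of Ggt1 and Pgd lie inside the annotated genes, not upstream of them.

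Single libraries decided the 12-month count: it was 0 without fl/fl library Wt12MLFD326, 0 without Pt-CrAT library CrAT12MLFD328, 1 (Ggt1) without Pt-CrAT library CrAT12MLFD337, and 0 in a fit of these 6 libraries alone. The count over all genes moved with it, at 2464 genes with all libraries, 408 without Wt12MLFD326, 53 without CrAT12MLFD328, 391 without CrAT12MLFD337 and 1 in the fit of the 6 libraries. Without the TMM factors 1 member was called higher and 6 lower, and the median of all genes was -0.12. Adipocyte markers moved with the groups, with 6 of 7 tested called higher and a summed level of 353 to 884 CPM in Pt-CrAT and 134 to 276 CPM in fl/fl, and Retn, Cidec and Lep of that list were at 0 in at least 1 library of the series. Stromal markers summed to 54.5 to 76.3 CPM in Pt-CrAT and 63.9 to 114 CPM in fl/fl, with 3 of 6 called lower. The S1 and S2 proximal tubule markers summed to 15597 to 16364 CPM in Pt-CrAT and 13149 to 18529 CPM in fl/fl, with 3 of 12 called lower. S3 markers summed to 3677 to 4679 CPM in Pt-CrAT and 4989 to 6069.7 CPM in fl/fl, with 1 of 8 called lower. Called lower too were 2 of 5 thick ascending limb, 2 of 9 collecting duct and 1 of 6 endothelial markers. Podocyte markers summed to 191 to 259.6 CPM in Pt-CrAT and 267 to 329.9 CPM in fl/fl, and medulla and urothelium markers to 1183 to 1382 CPM in Pt-CrAT and 1024 to 1128 CPM in fl/fl, apart in both lists with 0 markers called. Aqp1 made up most of the second sum, at a mean of 1257 CPM over the 22 libraries. Upk1a, Upk1b, Upk3a, Krt5 and Krt15 averaged 0.19 to 9.03 CPM. Podxl, at 167 CPM, led the podocyte sum. The median log2 fold change ran opposite to both sums, at -0.42 for medulla and urothelium and 0.06 for podocyte markers. The part of these marker lists in the members' differences was not tested.

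**Figure D2:**
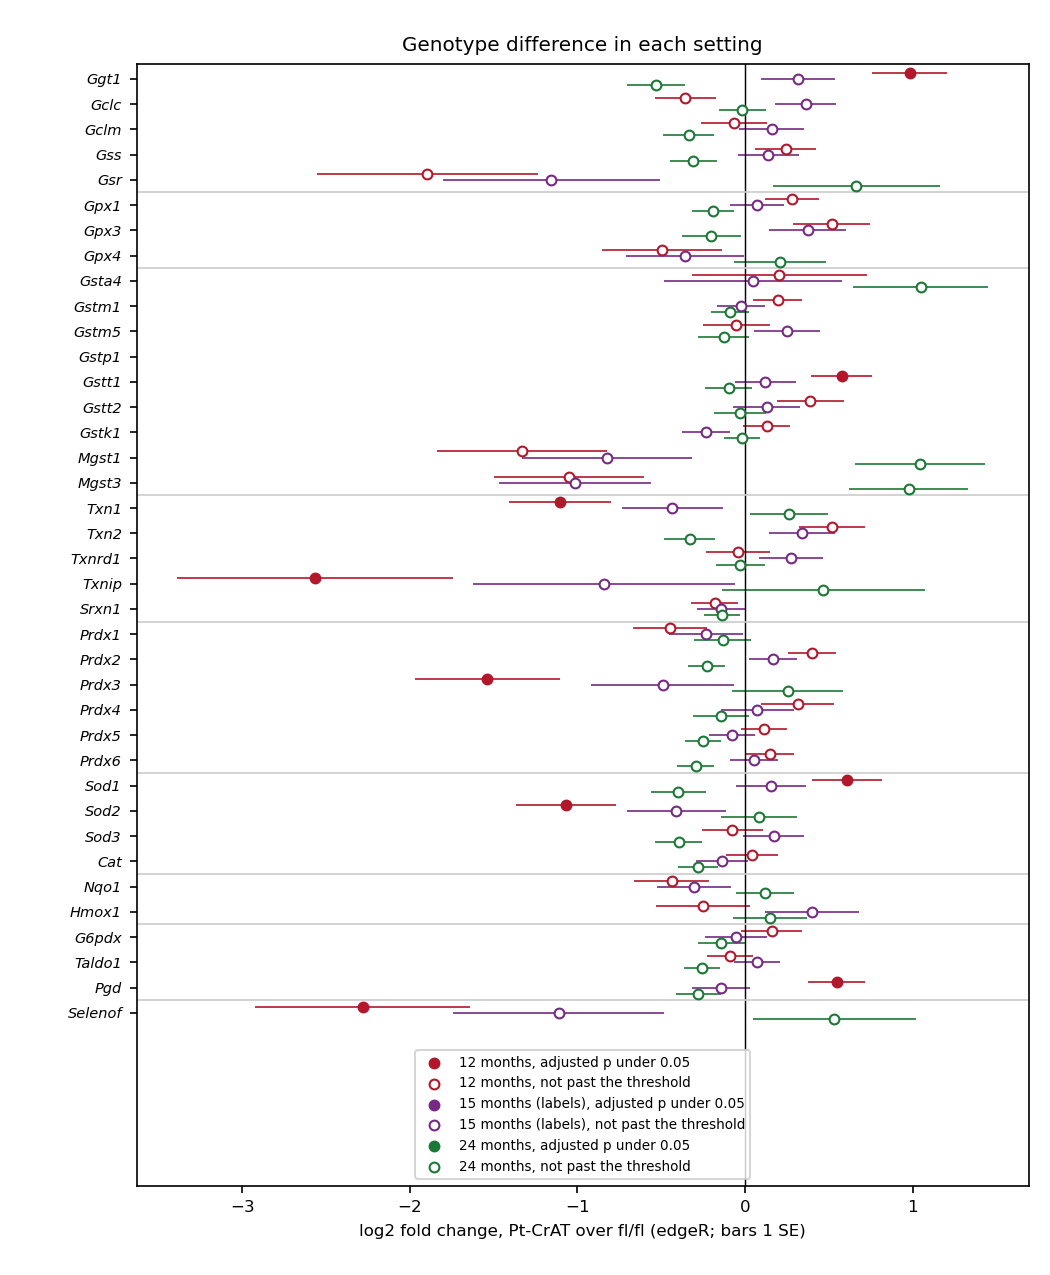
Log2 fold change of Pt-CrAT over fl/fl (x axis; bars are 1 SE) for each member, grouped by role, at 12, 15 and 24 months; filled points passed an adjusted p of 0.05 in edgeR, and Gstp1 has no points. All 9 filled points are from 12 months, with Ggt1 at 0.98 the farthest right and Txnip at -2.57 the farthest left.

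The members with the lowest 12-month fold changes were also placed by library. With Gstp1 counted, 9 members had a log2 fold change below -1: Txnip, Selenof, Gsr, Gstp1, Prdx3, Mgst1, Txn1, Sod2 and Mgst3. Mgst3 lay just inside at -1.05 and Gpx4, the phospholipid hydroperoxide glutathione peroxidase, was the next outside at -0.50. The set was formed after the values were seen and is a description with no test. At 12 months library CrAT12MLFD345 was the highest Pt-CrAT library for 8 of 9 and library Wt12MLFD326 the highest fl/fl library for 9 of 9, which restates values that chose the set. At 15 months, among libraries labelled Pt-CrAT, CrAT15Mchow185 was the lowest for 8 of 9 and CrAT15Mchow183 the highest for 6, and among those labelled fl/fl, Wt15Mchow225 was the lowest for 7 and Wt15Mchow205 the highest for 6. At 24 months the Pt-CrAT libraries were divided, with CrAT24Mchow124 the highest for 5 and CrAT24Mchow136 for 4, and CrAT24Mchow123 the lowest for 5, CrAT24Mchow146 for 3 and CrAT24Mchow135 for 1. In the same setting fl/fl library Wt24Mchow145 was the highest for 9 of 9 and library Wt24Mchow154 the lowest for 7 of 9. Among the other 29 members, Wt24Mchow145 was the lowest for 14 and the highest for 1, and Wt24Mchow154 the lowest for 7 and the highest for 9. At 12 months Wt12MLFD326 was the lowest fl/fl library for 16 of those 29 and the highest for 8. CrAT12MLFD345 was the lowest Pt-CrAT library for 16 of them and the highest for 5. The highest of the 5 fl/fl libraries at 24 months exceeded the lowest by a median factor of 3.88 over these 9 members (range 2.14 to 6.51), against 1.34 over the other 29 (range 1.09 to 2.54). Levels were not matched between the sets. The 9 averaged 0.38 CPM (Gstp1) to 282 CPM (Sod2) over the 22 libraries, and the other 29 averaged 8.63 CPM (G6pdx) to 16025 CPM (Gpx3). Gstp1 entered with a factor of 5.96 that rests on few counts.

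**Figure D3:**
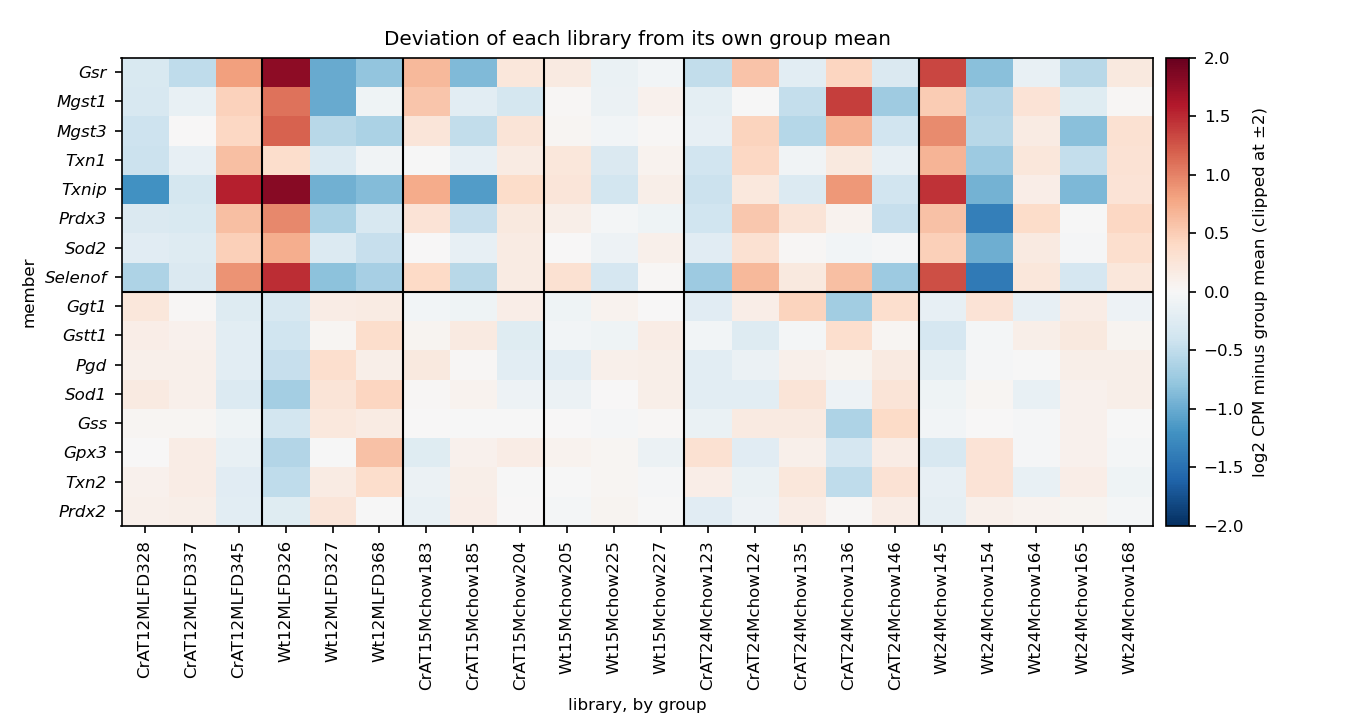
Log2 CPM minus the mean of the library's own group (colour, clipped at ±2) for 8 of the 9 members with a 12-month log2 fold change below -1 (upper rows; Gstp1 left out) and 8 other members (lower rows), with the 22 libraries in columns by group. Libraries Wt12MLFD326 and Wt24Mchow145 are high and library Wt24Mchow154 low across the upper rows, and the lower rows are paler.

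At 15 months no member passed (edgeR; 0% of all genes were called, and 1249 genes had an unadjusted p under 0.05, 1 member among them; DESeq2 called 0 genes). The smallest adjusted p was 0.581, and log2 fold changes ran from -1.16 (Gsr) to 0.40 (Hmox1, haem oxygenase), with a median of 0.01 for the members and 0.01 for all genes. Ggt1 had 3365, 3309.7 and 3831 CPM in the libraries labelled Pt-CrAT and 2657, 2954 and 2817 CPM in those labelled fl/fl. These did not overlap, and the log2 fold change was 0.32 (SE 0.22, edgeR adjusted p = 0.614). Gsr had 24.2, 8.28 and 18.02 CPM in libraries labelled Pt-CrAT and 42.4, 34.1 and 35.96 CPM in those labelled fl/fl. Selenof had 17.01, 8.78 and 14.5 CPM in libraries labelled Pt-CrAT and 35.3, 22.5 and 29.1 CPM in those labelled fl/fl. In both genes all 3 libraries labelled Pt-CrAT lay below all 3 labelled fl/fl, with library CrAT15Mchow185 the lowest. In all, 6 members lay above without overlap (Ggt1, Gss, Gpx3, Gstt2, Txn2 and Txnrd1), against 11.6% of all genes, and 8 lay below (Gsr, Mgst1, Mgst3, Prdx1, Prdx3, Sod2, Nqo1 and Selenof), against 12.7% of all genes. Macrophage markers summed to 377 to 501 CPM in libraries labelled Pt-CrAT and 351 to 357 CPM in those labelled fl/fl. In the same order, erythrocyte markers summed to 1094 to 1277 and 1804 to 1917 CPM, and endothelial markers to 349 to 474 and 494 to 521 CPM. Distal convoluted and connecting tubule markers summed to 578 to 646 and 671 to 721 CPM. The other lists overlapped, no marker was called, and their part was not tested.

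At 24 months no member passed (edgeR; 0% of all genes were called, and 1409 genes had an unadjusted p under 0.05, 14 members among them; DESeq2 called 8 genes and 0 members). Values were lower in Pt-CrAT for 25 of 38 members, against 7098 of all 15064 genes. The median log2 fold change was -0.11 for the members and 0.02 for all genes, and the smallest adjusted p was 0.461 (edgeR). Ggt1 had 1832, 2342, 2923, 1324 and 2698 CPM in Pt-CrAT libraries CrAT24Mchow123, CrAT24Mchow124, CrAT24Mchow135, CrAT24Mchow136 and CrAT24Mchow146, against 2856, 3868, 2837, 3533 and 2972 CPM in fl/fl libraries Wt24Mchow145, Wt24Mchow154, Wt24Mchow164, Wt24Mchow165 and Wt24Mchow168. In Pt-CrAT 4 of 5 libraries lay below every fl/fl library (log2 fold change -0.53, SE 0.17, edgeR adjusted p = 0.461). Sod1 had 2539.8, 2542, 3503, 2742 and 3505 CPM in Pt-CrAT and 3652, 4000.5, 3506, 4139 and 4237 CPM in fl/fl (log2 fold change -0.40, SE 0.16, edgeR adjusted p = 0.475). Cat, the peroxisomal enzyme that splits hydrogen peroxide, had 815, 1001, 1093, 1073 and 1169.7 CPM in Pt-CrAT and 1178, 1239.9, 1386, 1259 and 1192 CPM in fl/fl (log2 fold change -0.28, SE 0.12, edgeR adjusted p = 0.486). Sod1 and Cat were the 2 members that lay below without overlap, Sod1 narrowly, against 0.797% of all genes, and 0 lay above, against 0.737% of all genes.

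Some transferases had positive values at 24 months, and leaving out libraries CrAT24Mchow123 and CrAT24Mchow136 changed these to differing degrees. Gsta4, which conjugates lipid aldehydes, had 54.5, 13.5, 13.4, 77.2 and 17.7 CPM in Pt-CrAT and 12.99, 16.02, 23.5, 16.7 and 16.1 CPM in fl/fl. The high values are those of libraries CrAT24Mchow123 and CrAT24Mchow136, and the log2 fold change of 1.05 (edgeR adjusted p = 0.468) was -0.21 without them. Mgst1 had 18.3, 20.9, 15.1, 54.6 and 12.8 CPM in Pt-CrAT and 16.3, 7.62, 13.8, 9.64 and 11.6 CPM in fl/fl, with library CrAT24Mchow136 far above the rest. Its log2 fold change was 1.04 (edgeR adjusted p = 0.468), and 0.45 without the pair. Mgst3 had 6.09, 9.30, 4.61, 10.9 and 5.23 CPM in Pt-CrAT and 6.36, 2.26, 3.69, 1.85 and 4.08 CPM in fl/fl. Its highest libraries were CrAT24Mchow136 and CrAT24Mchow124. The log2 fold change was 0.98 (edgeR adjusted p = 0.461), and 0.78 without the pair. Leaving out both libraries moved Ggt1 to -0.29. S1 and S2 proximal tubule markers summed to 8113 and 7432 CPM in CrAT24Mchow123 and CrAT24Mchow136. They summed to 10501 to 10747 CPM in the other Pt-CrAT libraries and 10519.8 to 12395 CPM in fl/fl. S3 markers summed to 1596 and 1247 CPM in the pair, 2580 to 2604 CPM in the other Pt-CrAT libraries and 2289 to 3024 CPM in fl/fl. None of these markers was called, and their part was not tested.

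Between 15 and 24 months, 9 members fell in Pt-CrAT and 0 rose. They were the extracellular superoxide dismutase Sod3, Gpx3, Gpx1, the pentose phosphate enzyme Taldo1, the glutathione synthetase Gss, Ggt1 and the peroxiredoxins Prdx2, Prdx5 and Prdx6. These 9 of 38 members (23.7%) compare with 5.71% of all genes called lower, and the 0 with 5.61% called higher (edgeR, 15064 genes tested). The median log2 fold change was -0.18 for the members and 0.04 for all genes. In each of the 9 every 24-month library lay below every 15-month library. Crat itself also passed as lower at 24 months in this comparison (log2 fold change -0.93, SE 0.24, edgeR adjusted p = 0.0165), in 12 of 15 alternative fits. In fl/fl its log2 fold change was 0.72 (edgeR adjusted p = 0.115). The 15-month libraries of both age comparisons are those whose labels Crat went against.

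Sod3 (ENSMUSG00000072941, chr5:52363791-52371418, plus strand) had 177, 214, 262, 135.8 and 245 CPM at 24 months, against 319.8, 416 and 416 CPM at 15 months in libraries CrAT15Mchow183, CrAT15Mchow185 and CrAT15Mchow204. Libraries CrAT24Mchow136 and CrAT24Mchow123 were the lowest, and the log2 fold change was -0.89 (SE 0.16, edgeR adjusted p = 0.00208). Taldo1 (ENSMUSG00000025503, chr7:141392199-141402968, plus strand) had 269.6, 318, 351, 248 and 332 CPM at 24 months and 445, 476 and 456 CPM at 15 months (log2 fold change -0.59, SE 0.12, edgeR adjusted p = 0.00455). Gpx3 (ENSMUSG00000018339, chr11:54902453-54910377, plus strand) had 12435, 8607, 10751, 7971 and 11109 CPM at 24 months and 14914, 18741 and 19529 CPM at 15 months (log2 fold change -0.80, SE 0.20, edgeR adjusted p = 0.0136). For Gpx3 library CrAT24Mchow123 was the highest of its group, unlike for Sod3. Gss had 319, 393, 396, 226 and 456 CPM at 24 months and 548, 541 and 543 CPM at 15 months (log2 fold change -0.60, SE 0.16, edgeR adjusted p = 0.0179). Gpx1 had 2234, 3643, 3525, 2996 and 3859 CPM at 24 months and 4718, 4737 and 4669 CPM at 15 months (log2 fold change -0.53, SE 0.14, edgeR adjusted p = 0.0191). The 15-month libraries of Gss and Gpx1 lay close together, and those of 24 months spread widely below them.

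Ggt1 ran at 1324 to 2923 CPM at 24 months and 3309.7 to 3831 CPM at 15 months (log2 fold change -0.66, SE 0.19, edgeR adjusted p = 0.0321). The cytosolic peroxiredoxin Prdx2 had 257, 279, 332, 306 and 332 CPM at 24 months and 367, 447 and 406 CPM at 15 months (log2 fold change -0.43, edgeR adjusted p = 0.0303). Prdx5, found in mitochondria and peroxisomes, had 581.8 to 802 CPM at 24 months and 904 to 937 CPM at 15 months (log2 fold change -0.39, edgeR adjusted p = 0.0388). These differences were smaller than those of Sod3 and Gpx3. Prdx6, which also reduces phospholipid peroxides, had 643 to 756 CPM at 24 months and 875 to 985 CPM at 15 months (log2 fold change -0.41, edgeR adjusted p = 0.0419). The other 29 members did not pass, with log2 fold changes from -0.67 (Hmox1) to 1.26 (Gsta4). In all, 13 members lay below without overlap, against 11.3% of all genes, and 1 (Gstm1) lay above, against 10.5% of all genes.

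Sod3 and Taldo1 passed in 15 of 15 alternative fits and Gpx3 in 13 of 15. The count was 2 without library CrAT15Mchow185 and 2 without library CrAT15Mchow204, 5 without library CrAT24Mchow123, 4 without libraries CrAT24Mchow123 and CrAT24Mchow136, and 3 in a fit of these libraries alone. Over all genes the count was 1705 with all libraries, 421 without CrAT15Mchow185, 393 without CrAT15Mchow204, 1184 without CrAT24Mchow123, 417 without CrAT24Mchow123 and CrAT24Mchow136, and 1273 in the fit of these libraries alone. Of the 9 members, 7 are in the promoter table and 1 of these (Ggt1) holds the antioxidant response core. Without the TMM factors the median of all genes was 0.29, and 5 members were called higher (Gsta4, Gstm1, Mgst1, Nqo1 and G6pdx) and 3 lower (Gpx3, Sod3 and Taldo1), while the 9 named above stayed negative. Proximal tubule S1 and S2 markers summed to 7432 to 10747 CPM at 24 months and 14820.4 to 16405 CPM at 15 months, with 6 of 12 called lower. S3 markers summed to 1247 to 2604 CPM at 24 months and 3196 to 4488 CPM at 15 months, with 3 of 8 called lower. Stromal markers summed to 134.8 to 169 CPM at 24 months and 72.3 to 108 CPM at 15 months, with 3 of 6 called higher, and so were 1 of 5 thick ascending limb and 1 of 9 collecting duct markers. The collecting duct sum was 769.7 to 1419.9 CPM at 24 months and 498 to 736 CPM at 15 months. Medulla and urothelium markers summed to 1147 to 1857 CPM at 24 months and 1026 to 1419 CPM at 15 months (5 of 6 called higher) and macrophage markers to 427 to 806 CPM at 24 months and 377 to 501 CPM at 15 months (3 of 9 called higher). Androgen-responsive proximal tubule markers summed to 3465 to 30602 CPM at 24 months and 33279.7 to 39291 CPM at 15 months, with 2 of 8 called lower. Distal convoluted and connecting tubule markers summed to 357 to 482 CPM at 24 months and 578 to 646 CPM at 15 months (2 of 5 called lower) and adipocyte markers to 67.1 to 184 CPM at 24 months and 195 to 274 CPM at 15 months (1 of 7 called lower). These 3 lists did not overlap between the ages, and neither did the S1 and S2, S3, stromal and collecting duct lists. Their part in the members' differences was not tested.

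**Figure D4:**
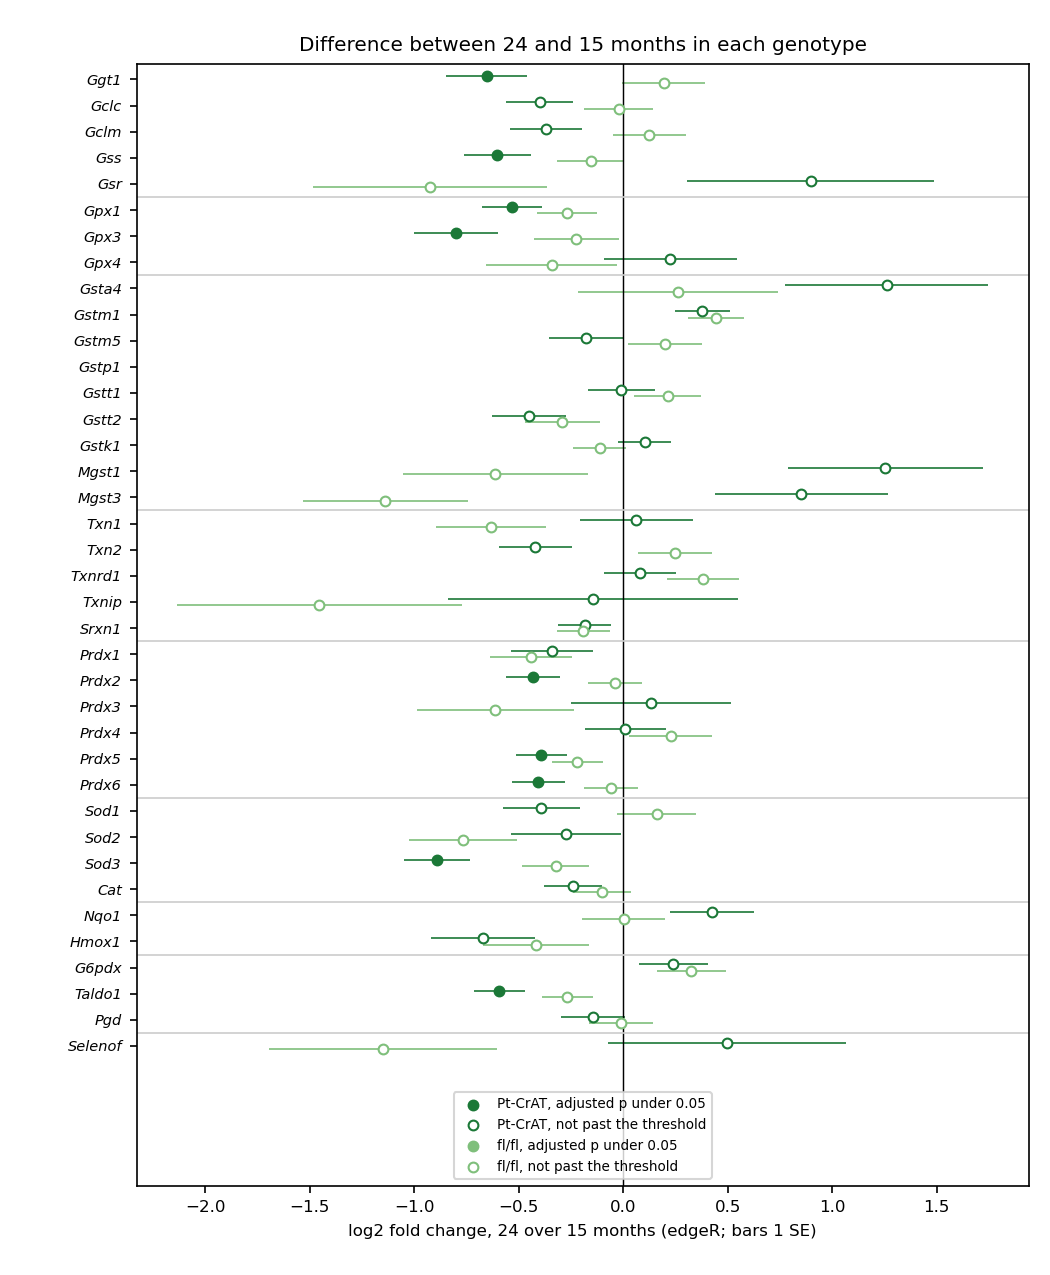
Log2 fold change of 24 over 15 months (x axis; bars are 1 SE) for each member, grouped by role, in Pt-CrAT and in fl/fl; filled points passed an adjusted p of 0.05 in edgeR, and Gstp1 has no points. The 9 filled points are from Pt-CrAT and lie left of 0, with Sod3 at -0.89 the farthest.

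In fl/fl no member passed between 15 and 24 months (edgeR), and 1.3% of all genes were called. Of the 15064 genes, 3266 had an unadjusted p under 0.05 (edgeR), 9 of the 38 members among them. DESeq2 called 729 genes (4.84%), with 1 member (Gstm1) among them. The median log2 fold change was -0.17 for the members and 0.02 for all genes. Sod3 had 259, 285, 261, 271 and 284 CPM at 24 months and 336, 341 and 344.9 CPM at 15 months (log2 fold change -0.32, SE 0.16, edgeR adjusted p = 0.245). Taldo1 had 369, 339, 355, 366 and 387 CPM at 24 months and 421, 449 and 440.3 CPM at 15 months (log2 fold change -0.27, SE 0.12, edgeR adjusted p = 0.21). Both genes were lower in all 5 libraries at 24 months than in any at 15 months. So were Gss, at 428 to 467 CPM at 24 months and 484 to 500 CPM at 15 months, and Gpx1, at 3393 to 4106 CPM and 4307 to 4692 CPM. The ages overlapped in fl/fl for Ggt1, Gpx3, Prdx2, Prdx5 and Prdx6, the remaining members called in Pt-CrAT. Gstm1, a mu-class transferase, had 250.1, 307, 259.6, 301 and 256 CPM at 24 months and 183.2, 211 and 213 CPM at 15 months, and the smallest adjusted p of the members (log2 fold change 0.44, SE 0.13, edgeR adjusted p = 0.0774). In all, 4 members lay above without overlap (Gstm1, Txn2, Txnrd1 and G6pdx), against 8.7% of all genes. Below lay 10 (Gss, Gpx1, Gstt2, Mgst1, Mgst3, Prdx1, Prdx3, Sod2, Sod3 and Taldo1), against 8.26% of all genes. S1 and S2 markers summed to 10519.8 to 12395 CPM at 24 months and 13134 to 14928 CPM at 15 months in fl/fl, with 1 of 12 called lower. S3 markers summed to 2289 to 3024 CPM at 24 months and 3357 to 4277 CPM at 15 months (0 of 8 called), and distal convoluted and connecting tubule markers to 361 to 567 CPM at 24 months and 671 to 721 CPM at 15 months (1 of 5 called lower), both without overlap. Podocyte markers, at 119 to 251 CPM at 24 months and 263 to 302 CPM at 15 months, and macrophage markers, at 413 to 668 CPM at 24 months and 351 to 357 CPM at 15 months, were also apart in sum, with 0 called. Their part in these values was not tested.

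Whether the change from 15 to 24 months differed between the genotypes was tested directly, and no member passed (edgeR; 0% of all genes were called, and 2255 genes had an unadjusted p under 0.05, 8 members among them; DESeq2 called 23 genes and 0 members). The calls in Pt-CrAT are therefore not shown to be particular to that genotype. On the log2 scale the difference was -0.57 for Sod3 (SE 0.23, edgeR adjusted p = 0.294), -0.33 for Taldo1 (SE 0.18, edgeR adjusted p = 0.364) and -0.58 for Gpx3 (SE 0.29, edgeR adjusted p = 0.344). It was -0.85 for Ggt1 (SE 0.28, edgeR adjusted p = 0.29).

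Across the 3 settings the genotype difference varied for 3 of 38 members (edgeR test with 2 degrees of freedom), against 5.07% of all genes. These were Ggt1 (adjusted p = 0.02), Mgst3 (adjusted p = 0.0415) and Mgst1 (adjusted p = 0.0495). Ggt1 averaged 5147 ± 869 CPM in Pt-CrAT and 2606 ± 463 CPM in fl/fl at 12 months (SD, n = 3 each), 3502 ± 286 CPM in libraries labelled Pt-CrAT and 2809 ± 148 CPM in those labelled fl/fl at 15 months (SD, n = 3 each), and 2224 ± 650.1 CPM in Pt-CrAT and 3213 ± 463 CPM in fl/fl at 24 months (SD, n = 5 each). The Ggt1 mean was thus above fl/fl at 12 months and below it at 24 months. An exact two-sided permutation test of the Ggt1 levels gave p = 0.1 at 12 and p = 0.1 at 15 months, the smallest that 3 against 3 libraries allow, and p = 0.0238 at 24 months, where the smallest is 0.00794. Mgst1 and Mgst3 ran the other way, with log2 fold changes of -1.33, -0.82 and 1.04 for Mgst1 and -1.05, -1.01 and 0.98 for Mgst3 at 12, 15 and 24 months. The variation of Ggt1 passed in 26 of 29 alternative fits, and did not without Pt-CrAT library CrAT12MLFD328 (edgeR adjusted p = 0.0877), without Pt-CrAT library CrAT12MLFD337 (edgeR adjusted p = 0.0639) or without libraries Wt12MLFD326 and CrAT12MLFD328 together. That of Mgst3 passed in 13 of 29 and that of Mgst1 in 11 of 29. Age and the LFD label change together between 12 months and the later settings and cannot be told apart.

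**Figure D5:**
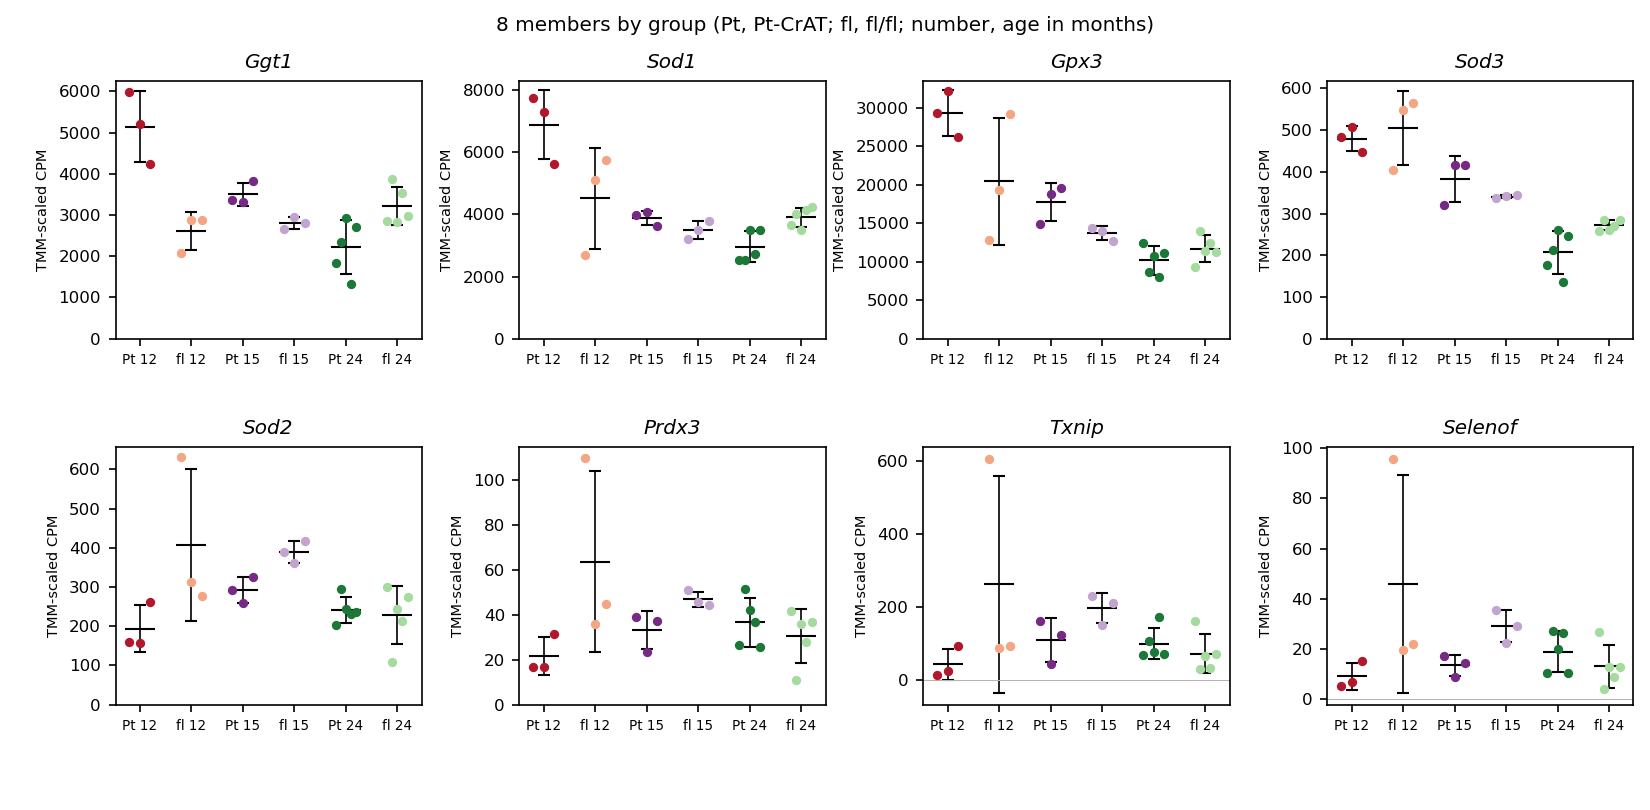
Levels of 8 members (y axis, TMM-scaled CPM) in the 6 groups, with 1 point per library and the mean ± SD. Ggt1 lies at 4249 to 5984 CPM in Pt-CrAT and 2070.4 to 2877 CPM in fl/fl at 12 months, and 1 fl/fl library at 12 months stands above all others for Sod2, Prdx3, Txnip and Selenof.

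Other genes of the same pathways were read from 6 lists. At 12 months, when 8.41% of all genes were called higher and 7.95% lower, of 29 NRF2 regulators and other NRF2 targets 3 were called higher and 2 lower. Keap1, the inhibitor of NRF2, averaged 169 ± 21.5 CPM in Pt-CrAT and 102 ± 11.4 CPM in fl/fl (SD, n = 3 each; log2 fold change 0.73, SE 0.13, edgeR adjusted p = 0.00489) and passed in 11 of 13 alternative fits. Nfe2l2, which encodes NRF2, averaged 59.5 ± 7.31 CPM in Pt-CrAT and 51.6 ± 1.04 CPM in fl/fl (SD, n = 3 each; log2 fold change 0.20, edgeR adjusted p = 0.423). Of 25 further thioredoxin and glutaredoxin genes 3 were called higher and 6 lower, among them the sestrin Sesn1 at -1.11 on the log2 scale. Of 22 further glutathione cycle genes and peroxidases 1 was higher (Slc25a40, a mitochondrial carrier linked to glutathione import) and 3 were lower (Anpep, Hagh and Abcc1). Of 20 genes of other oxidant removal and mitochondrial NADPH 0 were higher and 3 lower, with the cytosolic isocitrate dehydrogenase Idh1 at -1.31. Of 12 further selenoprotein genes 2 were higher and 2 lower, and of 12 further transferases 1 was higher (Gstz1).

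Between 15 and 24 months in Pt-CrAT the NRF2 list had 3 of 29 called higher and 4 lower, against 5.61% and 5.71% of all genes. The carbonyl reductase Cbr3 ran at 4.08 to 12.97 CPM at 24 months and 1.84 to 3.39 CPM at 15 months (log2 fold change 1.54, edgeR adjusted p = 0.0212). The related Cbr1 ran at 21.6 to 79.4 CPM at 24 months and 17.99 to 22.1 CPM at 15 months, overlapping (log2 fold change 1.13, edgeR adjusted p = 0.0335). Without libraries CrAT24Mchow123 and CrAT24Mchow136 these were 0.75 for Cbr3 and 0.43 for Cbr1 (edgeR adjusted p = 0.26 and 0.336). The epoxide hydrolase Ephx1 rose (0.91, edgeR adjusted p = 0.0149), as did the transferase Gsta2 (1.11, edgeR adjusted p = 0.0448), 1 of 12 further transferases. Without the same pair these were 0.52 for Ephx1 and 0.56 for Gsta2 (edgeR adjusted p = 0.116 and 0.34). Of the glutathione cycle list 3 of 22 fell (Ggct, Slc25a39 and Esd), of the oxidant removal list 3 of 20 (Park7, Cyba and Ccs, the copper chaperone of SOD1), of the thioredoxin list 1 of 25 (Sesn2) and of the selenoprotein list 0 of 12. In fl/fl 1 gene of the 6 lists was called, Hpgds, a glutathione-dependent prostaglandin D synthase, at 1.21 (edgeR adjusted p = 0.0189). Between genotypes at 15 and at 24 months 0 genes of the 6 lists were called.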

How the data were processed

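Kidney cortex RNA of 22 libraries was sequenced as 3' tags. The authors deposited raw counts per gene and a table of the same genes as counts divided by DESeq2 size factors (a normalized signal); per the submitters' processing notes R 3.4.3, DESeq2 1.18.1 and GRCm38 were used, while no source used here gives the aligner, counter or strand setting. The deposited counts were tested with edgeR 4.0.16 in R 4.3.3 (TMM factors, filterByExpr, robust quasi-likelihood F test), in 1 fit of 6 groups with 16 residual degrees of freedom, adjusted over 15064 genes at a threshold of 0.05; levels are TMM-scaled CPM. The code was tested on simulated data. Alternatives were DESeq2 1.42.0 size factors and test, limma-voom 3.58.1, no filter, only the libraries compared, leaving out libraries, and, added after seeing the data, scaling without TMM factors. Members and lists were chosen with earlier results of these data known. Any member could be named; values by library were due for called members, Ggt1 and up to 8 further members of largest log2 fold change where none was called, and from the other lists up to 6 called genes each, with Nfe2l2, Keap1 and Crat always. Coordinates are from GENCODE M21 and promoter windows from RefSeq.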

Additional observations from a re-analysis of the deposited data

Results flagged for a closer look

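In 76 groups of 5 libraries (38 members, 2 groups at 24 months), 3 held 1 library far from the other four; chance alone gives about 1 in 20. Mgst1, a microsomal transferase, had 54.6 CPM in Pt-CrAT library CrAT24Mchow136, above the rest. Nqo1, a quinone reductase, had 73.4 CPM in fl/fl library Wt24Mchow164, above the rest, and Srxn1, which restores oxidised peroxiredoxins, had 99.1 CPM in fl/fl library Wt24Mchow154, below the rest.

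The genotype difference varied among the 3 settings for Ggt1 (edgeR adjusted p = 0.0200), Mgst3 (edgeR adjusted p = 0.0415) and Mgst1 (edgeR adjusted p = 0.0495).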

How the results depend on the processing

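No member call reversed under any alternative. The 12-month count of 9 members was 0 with only the libraries compared and 0 without libraries Wt12MLFD326 and CrAT12MLFD328; leaving out 1 library gave 0 to 14. The count of 9 between 15 and 24 months in Pt-CrAT was 3 with only the libraries compared and 4 without libraries CrAT24Mchow123 and CrAT24Mchow136; leaving out 1 library gave 2 to 9. In fl/fl the count of 0 was 1 with DESeq2 and 1 without TMM factors; leaving out 1 library gave 0 to 1. The 3 members whose genotype difference varied were 5 with DESeq2-style size factors in edgeR, 11 with DESeq2, 5 without TMM factors, 0 without libraries Wt12MLFD326 and CrAT12MLFD328 and 1 without libraries CrAT24Mchow123 and CrAT24Mchow136; leaving out 1 library gave 0 to 12. The cause was not tested. The counts of 0 at 15 months, at 24 months and for the difference between genotypes in the change with age were 0 in each alternative run. Of 3567 member values, 3324 kept direction and side of the threshold, 97 lost a call, 29 gained one and 117 that were never called changed sign. No paired analysis was possible because the groups share no replicate numbers.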
